A study of Homo sapiens with 8 samples.

Results

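The BCL2 family of apoptosis regulators was followed through 10 of its genes, chosen by name from the 18417 genes that the arrays measured through a probe set with exactly 1 gene symbol. They were the anti-apoptotic genes BCL2, BCL2L1 and MCL1, the effector genes BAX and BAK1, and the BH3-only genes BIK, BBC3, PMAIP1, BCL2L11 and BMF. Each of the 10 had a single probe set of its own, so none was lost to a filter and no choice between probe sets was needed. RNA came from T47D, a long-established line of luminal breast cancer cells that carry the estrogen receptor, and was hybridised to 8 Affymetrix Human Gene 1.0 ST arrays. Cells of every group first spent 2 days without steroids and were then reverse-transfected with 200 nM siRNA. This was a scrambled siRNA in the controls, and in the knockdown 3 pooled siRNAs to HSD17B1, the gene of 17β-HSD1, which converts estrone to the more potent estradiol. After 48 h the medium was replaced by charcoal-treated medium with 1 nM estradiol (E2) or with ethanol vehicle, for 2 more days. Both siRNAs were combined with both media, which gave 4 groups of 2 arrays. The labels number the arrays of a group 1 and 2 and speak of independent culture experiments. The knockdown was transient and in a single cell line.

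BCL2 family proteins decide whether the outer mitochondrial membrane is breached and cytochrome c released. Anti-apoptotic members hold the effectors BAX and BAK in check, and BH3-only proteins, produced or activated under stress, bind the anti-apoptotic members or the effectors and tip the balance toward cell death. In breast cancer cells BCL2 is known as an estrogen-induced gene, and BIK was described as a gene that rises when estrogen action is blocked. BBC3 (PUMA) and PMAIP1 (NOXA) are known targets of p53, which is mutated in T47D. A probe set reads the whole transcript, so splice forms with opposite activity, such as the long and short forms of BCL2L1 and MCL1, were not told apart, and many of these proteins are regulated after transcription.

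Array medians lay between 7.25 and 7.37 on the log2 scale. The first vehicle replicate of the knockdown stood apart, with a mean correlation of 0.976 with the other arrays against 0.984 to 0.988 for the rest, and it held the highest or lowest of the 8 values for 59.5% of the tested probe sets. Among the 10 genes it did so for 4. Replicate 1 of control siRNA with vehicle did so for 26.0% of probe sets and for 6 of the 10 genes. The luminal markers KRT8, KRT18, KRT19 and GATA3 had mean signals of 12.1 to 13.4, and ESR1 one of 8.68. Mean signals of the 14 measured markers of other cell types ran from 4.62 for PTPRC (immune) to 8.86 for COL1A1 (fibroblast), with KRT14 (basal) at 7.81 and CD14 (immune) at 7.07, and 0 of the 14 passed the test in an averaged comparison. Of the 8 luminal markers, 1 passed for E2, where it was higher (limma adjusted p = 0.0032), against 1.55% of all tested probe sets. For the knockdown 0 of the 8 passed, against 0.457%. Their median knockdown difference was -0.20 on the log2 scale, with 1 of the 8 positive. HSD17B1 was lower in all 4 knockdown arrays (8.32 to 8.41) than in all 4 control arrays (8.56 to 9.35). Such a separation in this direction held for 2.16% of tested probe sets. In replicate 1 the control arrays were at 9.35 (vehicle) and 9.12 (E2), against 8.41 and 8.32 in the knockdown. In replicate 2 they were at 8.66 and 8.56, against 8.36 and 8.37, so the gap was smaller there. The averaged HSD17B1 difference of -0.56 ± 0.16 did not pass (limma adjusted p = 0.221).

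None of the 10 genes changed past the threshold with E2 or with 17β-HSD1 siRNA. Averaged over the siRNAs, E2 differences ran from -0.30 for BMF to 0.30 for BAK1 on the log2 scale, and averaged over the media, knockdown differences ran from -0.24 for BAK1 to 0.40 for PMAIP1. Every difference is a limma estimate ± SE, set 4 arrays against 4 where averaged, and a call needed a p below 0.05 after Benjamini-Hochberg adjustment over the 21214 probe sets with a symbol. The smallest adjusted p among the 10 was 0.538 for E2 and 0.197 for the knockdown, where 1.55% and 0.457% of all tested probe sets were called. At an unadjusted p below 0.05, limma gave 1 of the 10 for E2 (BAK1) and 2 for the knockdown (BCL2L1 and PMAIP1), against 8.89% and 9.44% of all tested probe sets. With the replicate number as a block limma gave 2 of the 10 in each, against 10.7% and 11.6% of probe sets, and 0 of the 10 after adjustment, against 2.4% and 1.34%. No gene of the 10 had its E2 arrays all on one side of its vehicle arrays, against 4.93% of probe sets.

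The median E2 difference of the 10 genes was -0.05 and their median knockdown difference 0.02, beside -0.02 and 0.01 over all 18417 genes. Their median size without regard to sign was 0.11 for E2 and 0.14 for the knockdown, beside 0.09 for each over all genes. The replicates of these genes were also somewhat further apart than usual, with a median replicate SD of 0.20 against 0.16 over all tested probe sets. The 95% intervals of the 10 genes, unadjusted for multiple tests, reached from -0.63 to 0.60 for E2 and from -0.54 to 0.69 for the knockdown. Averaged changes beyond 0.645-fold or 1.51-fold for E2, and 0.688-fold or 1.62-fold for the knockdown thus lay outside every interval.

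**Figure D1:**
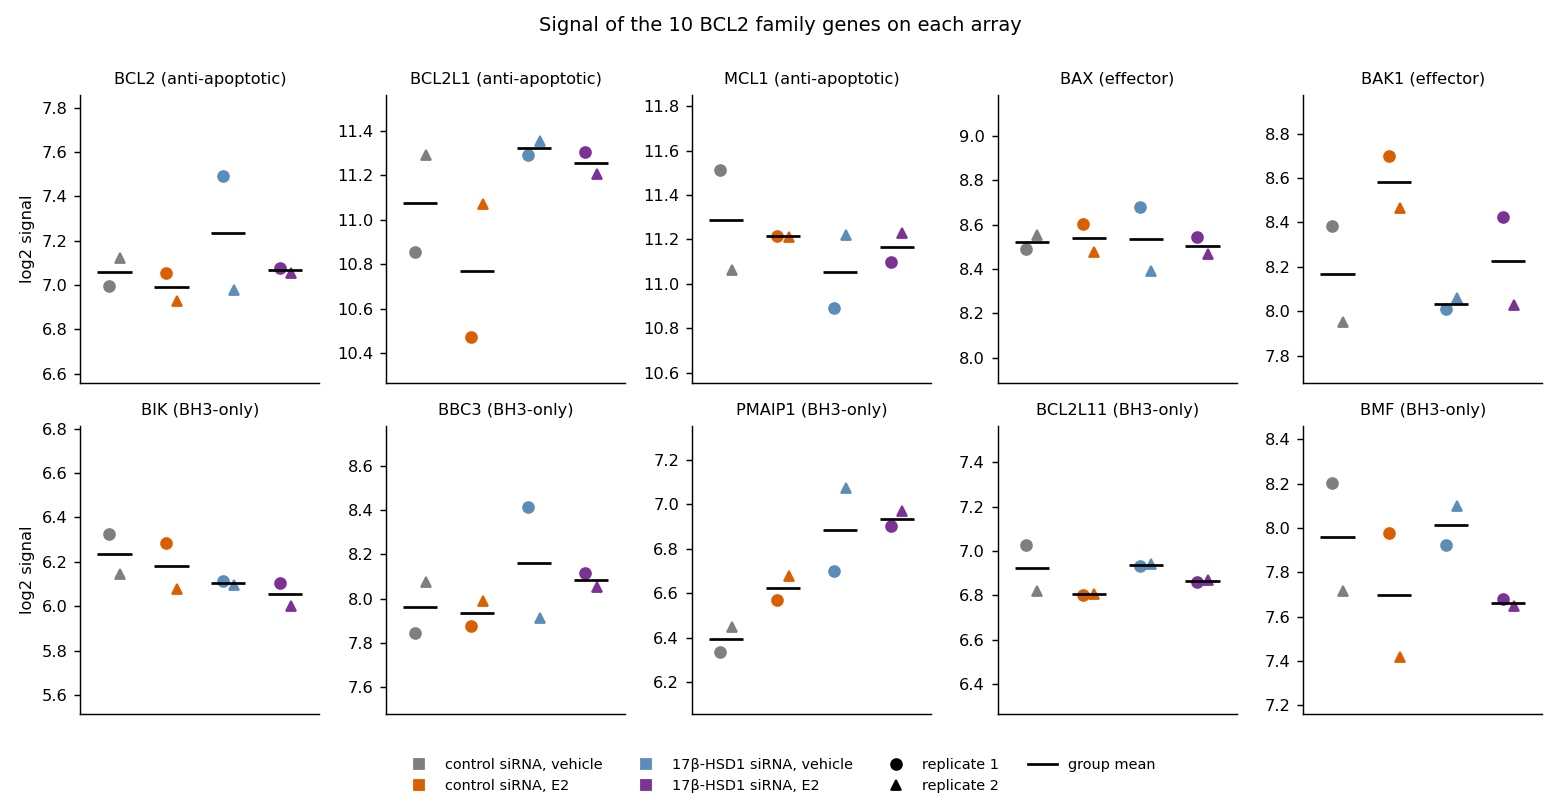
Log2 signal of each gene (vertical axis, 1.3 log2 units high in every panel) in the 4 groups, with circles for replicate 1, triangles for replicate 2 and a bar for the group mean of 2 arrays. Only PMAIP1 has all 4 knockdown arrays (6.70 to 7.07) above all 4 control siRNA arrays (6.34 to 6.68), and for most genes the replicates lie as far apart as the group means.

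Among the anti-apoptotic genes, BCL2, the founding member of the family, had a signal of 6.99 and 7.12 in control siRNA with vehicle and 7.06 and 6.93 with E2. In the knockdown its signals were 7.49 and 6.98 (vehicle) and 7.08 and 7.06 (E2). The array at 7.49 was the one that stood apart, and the other 7 lay between 6.93 and 7.12. The averaged E2 difference was -0.12 ± 0.13 (0.922-fold, adjusted p = 0.964), so no increase with E2 was detected. The averaged knockdown difference was 0.13 ± 0.13 (adjusted p = 0.903), and without the array that stood apart it was -0.0022.

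BCL2L1, which encodes BCL-X, had values of 10.85 and 11.29 in control siRNA with vehicle and 10.47 and 11.07 with E2. After 17β-HSD1 siRNA they were 11.29 and 11.36 in vehicle and 11.31 and 11.21 with E2. The knockdown arrays lay within 0.15 of each other, while the control arrays spread over 0.82 and their highest value reached into the knockdown range. The knockdown difference averaged 0.37 ± 0.15, or 1.29-fold, with an interval of 0.04 to 0.69 (adjusted p = 0.436). Leaving out the first E2 array of the controls gave 0.22, and leaving out the other gave 0.52. It was positive in all 4 same-numbered pairs of arrays, as for 9.34% of tested probe sets, but by 0.44 and 0.83 in replicate 1 and 0.06 and 0.14 in replicate 2. By medium it was 0.25 ± 0.21 in vehicle and 0.49 ± 0.21 with E2 (adjusted p = 0.967 and 1.00). Leaving out single arrays moved the value in vehicle between 0.031 and 0.47 and that with E2 between 0.19 and 0.78. The averaged E2 difference was -0.19 ± 0.15 (adjusted p = 0.914), and between -0.33 and -0.036 with single arrays left out.

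MCL1, which encodes a short-lived protein that mainly restrains BAK and binds NOXA, stood at 11.51 and 11.06 in control siRNA with vehicle and 11.22 and 11.21 with E2. In the knockdown it stood at 10.89 and 11.22 in vehicle and 11.10 and 11.23 with E2. Its highest and lowest values were both replicate 1 arrays in vehicle, 1 from each siRNA. The E2 difference was 0.02 ± 0.13 and the knockdown difference -0.14 ± 0.13 (adjusted p = 0.997 and 0.887). Without the array that stood apart the latter was -0.06.

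The effector genes differed in how much they varied. BAX, whose product moves to mitochondria and forms pores there, had signals of 8.49 and 8.55 in control siRNA with vehicle, 8.60 and 8.48 with E2, 8.68 and 8.39 in the knockdown with vehicle, and 8.55 and 8.46 with E2. Its group means stayed between 8.51 and 8.54. The differences were -0.0056 ± 0.11 for E2 and -0.0090 ± 0.11 for the knockdown, with intervals of -0.24 to 0.23 and -0.25 to 0.23.

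BAK1, whose product sits in the outer mitochondrial membrane, had the largest positive E2 difference of the 10. With control siRNA the signals were 8.38 and 7.95 (vehicle) and 8.70 and 8.47 (E2). In the knockdown the signals were 8.01 and 8.06 in vehicle, then 8.42 and 8.03 with E2. With control siRNA both E2 arrays were above both vehicle arrays, as for 16.6% of tested probe sets, and with 17β-HSD1 siRNA 1 E2 array was level with vehicle. The averaged E2 difference was 0.30 ± 0.13, 1.23-fold, with an interval of 0.01 to 0.60 (adjusted p = 0.538). It was 0.41 ± 0.19 with control siRNA and 0.19 ± 0.19 with 17β-HSD1 siRNA, and the test of the difference between these gave -0.22 ± 0.27 (adjusted p = 1.00). The knockdown difference was -0.24 ± 0.13 (adjusted p = 0.655).

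**Figure D2:**
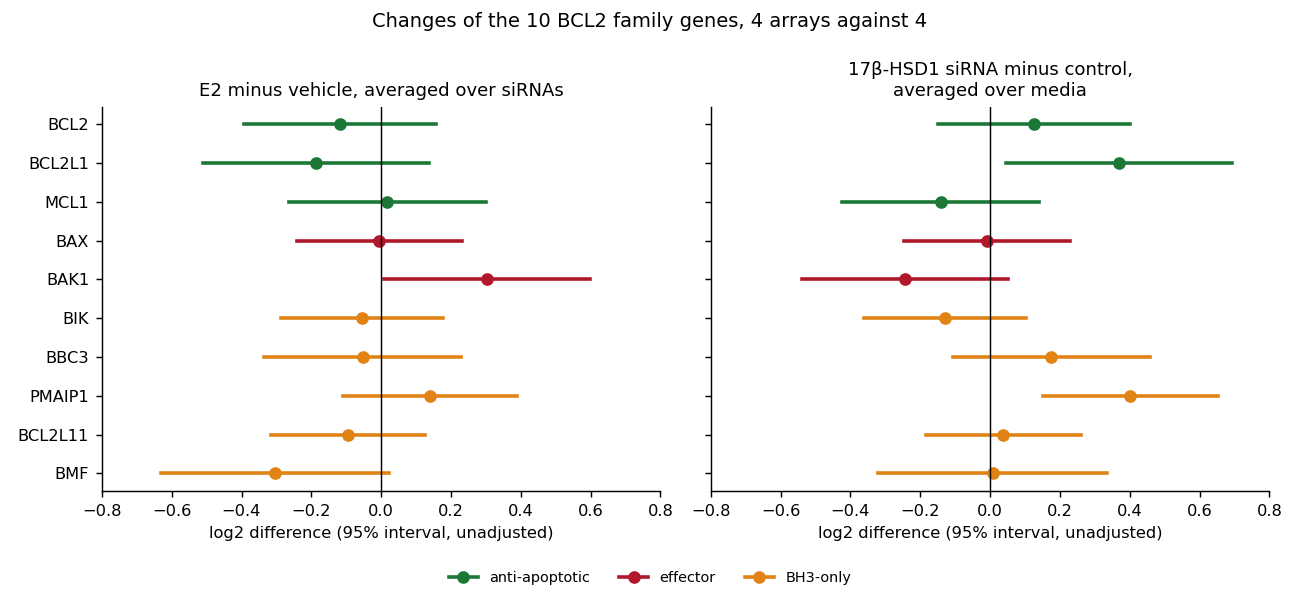
Averaged E2 differences (left) and averaged knockdown differences (right) of the 10 genes on the log2 scale, with points for the limma estimate over 4 arrays against 4 and lines for the unadjusted 95% interval. For E2 the interval of BAK1 alone lies off 0, and for the knockdown those of BCL2L1 and PMAIP1, and none of the 3 passes after adjustment.

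Of the BH3-only genes, PMAIP1 had the smallest adjusted p of the 10. It encodes NOXA, which binds MCL1 and hastens its degradation. Its signal was 6.34 and 6.45 in control siRNA with vehicle and 6.57 and 6.68 with E2. In the knockdown the values were 6.70 and 7.07 (vehicle) and 6.90 and 6.97 (E2). Every knockdown array was thus above every control array, which held in this direction for 2.24% of tested probe sets and for no other gene of the 10. The gap between the highest control and the lowest knockdown array was only 0.02. The averaged knockdown difference was 0.40 ± 0.11, 1.32-fold, with an interval of 0.15 to 0.65. The limma adjusted p was 0.197, or 0.0985 with the replicate block, so the difference did not pass.

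By medium the PMAIP1 knockdown difference was 0.49 ± 0.16 in vehicle and 0.31 ± 0.16 with E2 (adjusted p = 0.687 and 1.00). Replicate by replicate it was 0.36 and 0.62 in vehicle and 0.33 and 0.29 with E2. It was 0.50 without the array that stood apart (adjusted p = 0.0825), where that array held the lowest of the 4 knockdown values. The interaction, which sets the E2 difference after 17β-HSD1 siRNA against that after control siRNA, was -0.18 ± 0.23 (adjusted p = 1.00). The averaged E2 difference was 0.14 ± 0.11 (adjusted p = 0.920).

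The signals of BBC3, which encodes PUMA, a binder of all the anti-apoptotic members, were 7.85 and 8.08 in control siRNA with vehicle, 7.88 and 7.99 with E2, 8.41 and 7.91 in the knockdown with vehicle, and 8.12 and 8.05 with E2. The value of 8.41 came from the array that stood apart. The knockdown difference was 0.18 ± 0.13 (adjusted p = 0.814) with it and 0.05 without it. The E2 difference was -0.05 ± 0.13 (adjusted p = 0.991). With E2 the knockdown difference was 0.15 ± 0.18 (adjusted p = 1.00). That array takes no part in this difference itself. It does enter the SE and the p, because the fit shares 1 spread over all 8 arrays.

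BMF encodes a BH3-only protein held at the cytoskeleton until released, and had the largest negative E2 difference of the 10. It stood at 8.20 and 7.71 in control siRNA with vehicle and at 7.98 and 7.42 with E2. After 17β-HSD1 siRNA it stood at 7.92 and 8.10 in vehicle and at 7.68 and 7.65 with E2. With control siRNA the 2 replicates differed by more than the media did, and with 17β-HSD1 siRNA both E2 arrays were below both vehicle arrays, as for 11.9% of tested probe sets. The averaged E2 difference was -0.30 ± 0.15, 0.810-fold, with an interval of -0.63 to 0.02 (adjusted p = 0.631). It was -0.26 ± 0.21 with control siRNA and -0.35 ± 0.21 with 17β-HSD1 siRNA, with an interaction of -0.09 ± 0.30 (adjusted p = 1.00). The knockdown difference was 0.0080 ± 0.15.

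BCL2L11, which encodes BIM, a potent activator of the effectors, was 7.03 and 6.82 in control siRNA with vehicle, 6.80 and 6.81 with E2, 6.93 and 6.94 in the knockdown with vehicle, and 6.86 and 6.87 with E2. Apart from the first of these values, the arrays fell within 0.14 of each other. BIK was 6.33 and 6.15 in control siRNA with vehicle, 6.29 and 6.08 with E2, 6.11 and 6.10 in the knockdown with vehicle, and 6.10 and 6.00 with E2. BIK was among the dimmest 25% of the probe sets. E2 differences were -0.09 ± 0.10 for BCL2L11 and -0.05 ± 0.11 for BIK, and knockdown differences 0.04 ± 0.10 and -0.13 ± 0.11, with adjusted p between 0.857 and 0.988.

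Sorted by same-numbered pairs of arrays, BMF, BCL2L11 and BIK were each lower with E2 in 4 of 4 pairs, which held for 11.7% of tested probe sets. No gene of the 10 was higher with E2 in all 4 pairs, which held for 11.2%. For the knockdown, PMAIP1 and BCL2L1 were higher in 4 of 4 pairs (9.34% of tested probe sets) and BIK lower in 4 of 4 (9.47%). These are counts without a test, and for BIK and BCL2L11 the differences themselves were small.

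For none of the 10 genes did the E2 response differ between the siRNAs past the threshold. The interaction estimates ran from -0.22 for BAK1 to 0.24 for BCL2L1, and their intervals reached from -0.81 to 0.88. Limma called 0 of 21214 probe sets for the interaction, with 140 (0.66%) at an unadjusted p below 0.05 and none of them among the 10. Differences in response of up to about 1.84-fold are within these intervals. In the 4 comparisons within a single siRNA or medium, none of the 10 passed either, and the smallest adjusted p was 0.687, for PMAIP1 in vehicle. The shares of all probe sets called in them were 0.0848% for E2 with control siRNA, 0.269% for E2 with 17β-HSD1 siRNA and 0% for the knockdown in either medium. These 18, 57, 0 and 0 probe sets became 127, 111, 37 and 45 with the replicate block. At an unadjusted p below 0.05, limma gave 5.45% of probe sets for the knockdown in vehicle and 4.61% for the knockdown with E2, and 1 of the 10 in each (PMAIP1 and BCL2L1). The E2 and vehicle arrays did not overlap for 3 of the 10 with control siRNA (35.3% of probe sets). With 17β-HSD1 siRNA this held for 2 of the 10 (24.5%). Knockdown and control arrays did not overlap for 3 of the 10 in vehicle (23.5%) and 6 with E2 (38.1%).

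The balance of pro- and anti-apoptotic genes was read as a single value per array. Each gene was set relative to its own mean over the 8 arrays, and the mean of the 3 anti-apoptotic genes was subtracted from that of the 7 pro-apoptotic genes. This value was 0.04 and -0.13 in control siRNA with vehicle, 0.27 and -0.01 with E2, -0.05 and -0.03 in the knockdown with vehicle, and -0.00032 and -0.09 with E2. Only replicate 1 of control siRNA with E2 stood out, where BCL2L1 and BAK1 had their lowest and highest signals. The E2 difference in this value was 0.18 with control siRNA and -0.0066 with 17β-HSD1 siRNA, which gives an interaction of -0.18. The knockdown difference was 0.0089 in vehicle and -0.18 with E2. Averaged, the difference was 0.09 for E2 and -0.08 for the knockdown. The SD of a single array between replicates was 0.12 (4 groups, n = 2 each). Without replicate 1 of control siRNA with E2 the averaged differences were 0.015 and -0.013. Since the genes were chosen by name with results of these arrays known, no test was applied to this value.

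**Figure D3:**
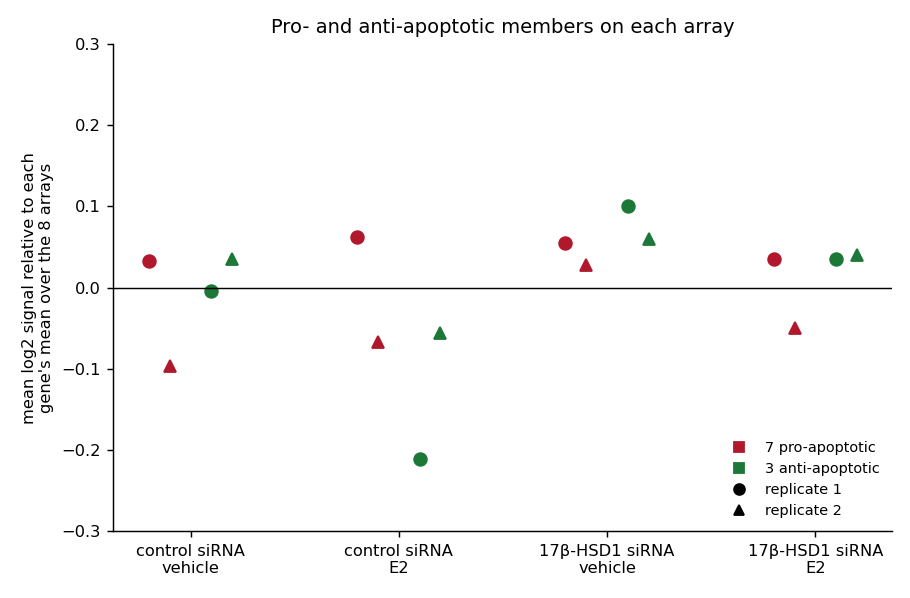
Mean log2 signal of the 7 pro-apoptotic (red) and 3 anti-apoptotic (green) genes on each array, each gene set relative to its own mean over the 8 arrays (vertical axis), by group (horizontal axis). All other values lie between -0.10 and 0.10, and the lowest point, -0.21, is the anti-apoptotic set in replicate 1 of control siRNA with E2.

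Upstream sequence was examined for the 2 genes with the smallest p in the averaged comparisons, PMAIP1 for the knockdown and BAK1 for E2. The 250 bases before the RefSeq start site (GRCh38.p14) are shown for PMAIP1 at chr18:59899746-59899995 on the plus strand and for BAK1 at chr6:33580277-33580526 on the minus strand. Capitals mark GC boxes (GGGCGG or its reverse complement), the sites that SP1-type factors bind, in PMAIP1. In BAK1 they mark a match to the p53 half-site.
PMAIP1: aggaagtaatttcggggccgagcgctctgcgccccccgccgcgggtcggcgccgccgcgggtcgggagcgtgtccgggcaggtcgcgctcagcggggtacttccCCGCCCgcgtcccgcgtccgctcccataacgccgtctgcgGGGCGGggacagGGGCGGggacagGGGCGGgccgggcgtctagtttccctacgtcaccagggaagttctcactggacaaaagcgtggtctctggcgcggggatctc
BAK1: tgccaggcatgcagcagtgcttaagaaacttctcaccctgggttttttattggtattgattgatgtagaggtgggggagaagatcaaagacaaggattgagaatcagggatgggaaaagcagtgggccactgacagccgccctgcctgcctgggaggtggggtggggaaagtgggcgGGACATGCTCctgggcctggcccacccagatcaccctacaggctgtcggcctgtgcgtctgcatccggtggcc

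PMAIP1 held 4 GC boxes, of which 3 formed an evenly spaced run between 106 and 77 bases before the start. In BAK1 the p53 half-site, GGACATGCTC, lay 73 to 64 bases before the start. The pattern searched is its own reverse complement, so any match to it counts on both strands. The first base of the BAK1 half-site is also the last base of a GC box on the gene's own strand. RefSeq windows were at hand for 8 of the 10 genes, as 10 windows, since BMF and BCL2L1 had 2 start sites each; MCL1 and BIK had none. Both strands were searched. The palindromic estrogen response element was in 0 of the 10 windows and in 0.0399% of all 35116 windows of this length. The core of the interferon-stimulated response element was in 0 of 10, against 3.02% of all. GC boxes were in 5 of the 10 windows, from 5 genes (BAX, BAK1, PMAIP1, BCL2L11 and BMF), against 42.6% of all windows. The p53 half-site was in BAK1 only (5.57% of all), and the forkhead motif GTAAACA in BCL2L11 only (2.98% of all), 223 to 217 bases before the start. A match shows only that the letters are present.

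Around these 10 genes, the wider apoptosis machinery gave 1 call in the averaged comparisons. Over all tested probe sets, 1.55% were called for E2 and 0.457% for the knockdown, and the counts of each list below stand beside these shares. BIRC5, which encodes survivin, an inhibitor of apoptosis protein that also serves in mitosis, rose with E2 by 0.64 ± 0.13, 1.56-fold (adjusted p = 0.0357). It was 8.35 and 8.65 in control siRNA with vehicle, 8.87 and 9.33 with E2, 8.25 and 8.02 in the knockdown with vehicle, and 8.85 and 8.78 with E2. All 4 E2 arrays were above all 4 vehicle arrays, as for 2.94% of tested probe sets. The call was lost without any 1 of 6 arrays. The adjusted p was 0.107 and 0.147 without control siRNA, vehicle replicate 1 and control siRNA, E2 replicate 2, and 0.0569 and 0.0827 without 17β-HSD1 siRNA, vehicle replicates 1 and 2. It was 0.166 and 0.138 without replicate 1 or replicate 2 of the knockdown in E2. It was also lost, at 0.155, with the unnamed probe sets included in the fit.

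Of the 15 measured genes of the apoptosome, caspases and their inhibitors, BIRC5 was the only call, and the list's median E2 difference was 0.05. CYCS, the gene of cytochrome c, stood at 0.38 ± 0.13 (adjusted p = 0.284). For the knockdown 0 of 15 passed, with a median of -0.04, and BIRC5 stood at -0.32 ± 0.13 and CASP2 at -0.20 ± 0.10 (adjusted p = 0.449 and 0.604).

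Among 10 measured genes of the death receptor pathway, 0 passed for E2 or the knockdown, with medians of 0.04 and -0.02. The TRAIL receptor genes TNFRSF10A and TNFRSF10B differed with E2 by 0.44 ± 0.13 and 0.35 ± 0.10 (adjusted p = 0.178 and 0.173). TNFSF10, the gene of the death ligand TRAIL and a known interferon-induced gene, was 7.54 and 7.88 in control siRNA with vehicle, 7.40 and 8.10 with E2, 8.34 and 8.93 in the knockdown with vehicle, and 8.52 and 8.81 with E2. All 4 knockdown arrays were above all 4 control arrays, as for 2.24% of tested probe sets. The averaged knockdown difference was 0.92 ± 0.18, 1.89-fold, with an adjusted p of 0.0571, or 0.0024 with the replicate block, under which it passed. It also passed in the additive model (limma adjusted p = 0.0392). It did not pass with other sets of probe sets (limma adjusted p from 0.0552 to 0.269), quantile normalization (0.0767) or a trended robust spread (0.0662). With single arrays left out the difference stayed between 0.75 and 1.10. CFLAR, which encodes the caspase-8 inhibitor FLIP, stood at 0.25 ± 0.13 (adjusted p = 0.619).

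**Figure D4:**
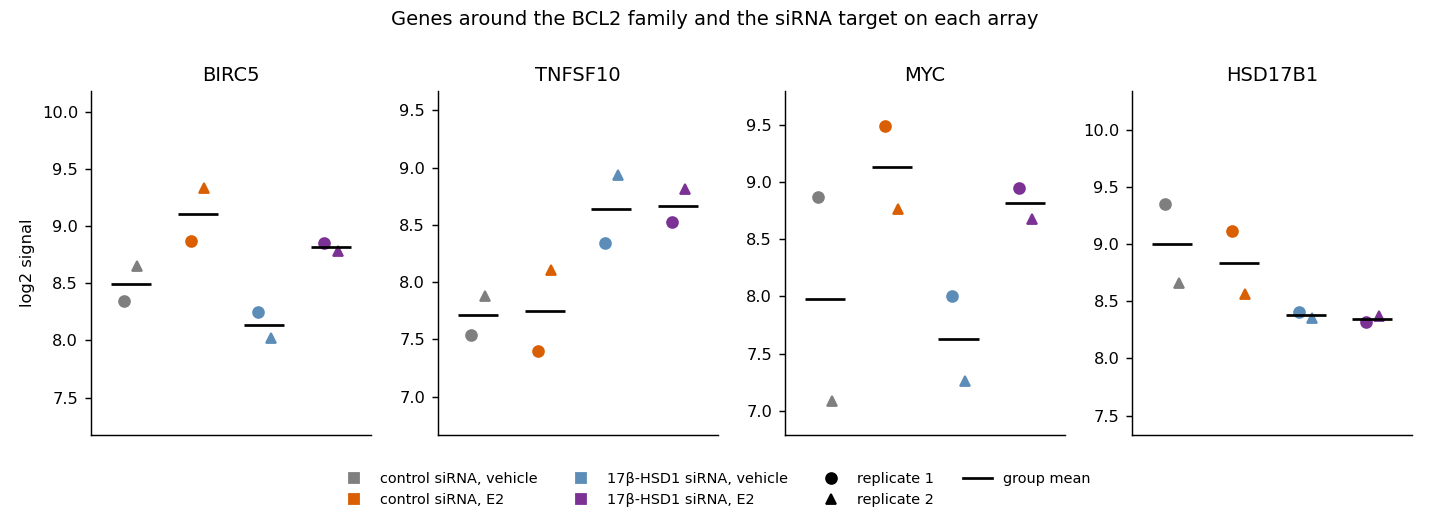
Log2 signal (vertical axis, 3 log2 units high in every panel) of BIRC5, TNFSF10, MYC and the siRNA target HSD17B1 in the 4 groups, with circles for replicate 1, triangles for replicate 2 and a bar for the mean of 2 arrays. BIRC5 is higher in all E2 arrays, TNFSF10 is higher and HSD17B1 lower in all knockdown arrays, and the MYC replicates in control siRNA with vehicle lie 1.78 apart.

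None of the other family members passed. Of 11 measured (BCL2A1, BCL2L10, BCL2L12 to BCL2L15, BOK, BID, BAD, HRK and BNIP3), 0 passed in either averaged comparison, and the median difference was 0.02 in both. Their E2 differences ran from -0.14 for BCL2L10 to 0.19 for BCL2L12, and their knockdown differences from -0.09 for BCL2L12 to 0.12 for BCL2L10. BCL2L15 stood at 0.11 ± 0.12 and BCL2L13 at 0.09 ± 0.11 in the knockdown (adjusted p = 0.910 and 0.916).

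Of 12 genes for partners and turnover of BCL2 proteins, 0 passed in either comparison, with median differences of -0.02 for E2 and -0.03 for the knockdown. VDAC2, the mitochondrial channel gene whose product holds BAK, stood at 0.27 ± 0.16 with E2 and -0.42 ± 0.16 in the knockdown (adjusted p = 0.797 and 0.413). VDAC3 stood at -0.32 ± 0.13 in the knockdown (adjusted p = 0.464), and USP9X, which encodes a deubiquitinase of MCL1, at -0.17 ± 0.10 with E2 (adjusted p = 0.816).

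Of 7 measured genes for transcription factors known to act on BH3-only genes, 0 passed in either comparison, with medians of -0.01 for both. MYC stood at 1.17 ± 0.33 with E2 (adjusted p = 0.148, or 0.0081 with the replicate block, under which it passed, and 0.00511 without control siRNA, vehicle replicate 1). The difference was 1.61 without that array and 0.72 without replicate 2 of the same group (adjusted p = 0.214). Its vehicle values with control siRNA were 8.87 and 7.09. E2F1 stood at 0.21 ± 0.11 with E2 (adjusted p = 0.725), FOXO3 at 0.16 ± 0.13 and MYC at -0.33 ± 0.33 in the knockdown (adjusted p = 0.846 and 0.899).

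The genes whose profile over the 8 arrays lay nearest to that of PMAIP1 were SECTM1, SMCR8 and APOBEC3F. The root mean square gap between centred log2 profiles was 0.0567, 0.0996 and 0.105, against a median of 0.294 over all genes. Their knockdown differences were 0.37 ± 0.11, 0.42 ± 0.11 and 0.33 ± 0.12, with adjusted p between 0.138 and 0.396, so none passed. SECTM1 was 7.25 and 7.46 in control siRNA with vehicle, 7.47 and 7.70 with E2, 7.67 and 7.92 in the knockdown with vehicle, and 7.84 and 7.95 with E2. Its control and knockdown ranges overlapped by 0.03.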

How the data were processed

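Labelled cDNA from 8 T47D RNA samples was hybridised to Affymetrix Human Gene 1.0 ST arrays, per the labels' protocols. The authors deposited 33297 probe set signals per array, which their range (2.42 to 15.2) shows to be on a log2 scale; for summarisation, background correction and normalization the method was not given in the sources used here. Values were tested as deposited. Gene names came from the array platform's annotation; symbols were updated by gene identifier from the RefSeq table of GRCh38.p14. The 21214 probe sets with a symbol were tested, 19460 of them with exactly 1. A gene was read from its probe set with exactly 1 symbol and the highest mean.

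Differences were fitted with limma 3.58.1 (R 4.3.3): lmFit on all 8 arrays, a coefficient for each group, 4 residual degrees of freedom, then eBayes, with Benjamini-Hochberg adjustment over all tested probe sets and a threshold of 0.05. The script was tested on simulated data. The 2 arrays per group limit the precision. The 10 genes, the lists and the tests were chosen with earlier results of these data known. All 10 genes are named. Of each other list except the cell type markers, called genes and the 2 with the smallest p in each averaged comparison are named. For the gene of the 10 with the smallest p, the 3 genes with the nearest profiles are named. Cell type markers are given by their signals, with calls as counts.

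The labels describe independent culture experiments, and the replicate number was taken as the experiment. Differences between replicates 1 and 2 correlated between groups at 0.44, 0.31, 0.31 and 0.42, and for control siRNA with vehicle at 0.01 and -0.20 with 17β-HSD1 siRNA in E2 and in vehicle. The main fit has no block. Alternatives were a replicate block, other sets of probe sets, quantile normalization of the deposited values, a robust spread with a trend, an additive model, fits on the arrays compared and leaving out each array.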

Additional observations from a re-analysis of the deposited data

How the results depend on the processing

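No alternative called any of the 10 genes. That covers the replicate block (0 called in each of the 7 comparisons), all probe sets, those with exactly 1 symbol, those left after the dimmest 25% were dropped (which drops BIK), quantile normalization, a trended robust spread, the additive model, fits on the 4 arrays compared and leaving out each array. The smallest adjusted p among averaged differences was 0.0825, for PMAIP1 without 17β-HSD1 siRNA, vehicle replicate 1, and with the replicate block it was 0.0985.

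Of 149 recomputed averaged E2 differences of these genes 138 kept their sign and side of the threshold, as did 138 of 149 for the knockdown. With quantile normalization MCL1 turned to -0.031 for E2 and BAX to 0.0056 for the knockdown. Leaving out single arrays turned the sign of small differences. For E2 these ran from -0.25 to 0.0099 for BCL2, -0.10 to 0.13 for MCL1, -0.077 to 0.066 for BAX and -0.18 to 0.073 for BBC3. For the knockdown they ran from -0.0022 to 0.25 for BCL2, -0.081 to 0.063 for BAX, -0.015 to 0.090 for BCL2L11, -0.13 to 0.15 for BMF and -0.78 to 0.11 for MYC. BMF ran from -0.54 to 0.021 for E2 with control siRNA, and BAK1 from -0.0049 to 0.39 for E2 with 17β-HSD1 siRNA. Interactions ran from -0.37 to 0.0044 for PMAIP1, -0.063 to 0.53 for BCL2L1 and -0.37 to 0.19 for BMF. PMAIP1's averaged knockdown difference stayed between 0.31 and 0.50.

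Counts over all probe sets moved more. For E2 the 329 called became 509 with the replicate block, 99 with all probe sets, and 197, 137 and 121 without control siRNA, E2 replicate 2 and 17β-HSD1 siRNA, E2 replicates 1 and 2. For the knockdown the 97 became 285 with the block, 157 in the additive model, 0 with all probe sets, 29 and 186 without control siRNA, vehicle replicate 1 and 17β-HSD1 siRNA, vehicle replicate 2, and 0 when either knockdown array in E2 was left out. A block with the control siRNA, vehicle numbers crossed, added after seeing the data, called 0 for the knockdown in vehicle, against 37 with the numbers as labelled. A fit on the 4 vehicle arrays alone called 63. The same kind of fit called 1 for the knockdown with E2, against 0 in the main fit. It called 95 for E2 with 17β-HSD1 siRNA, against 57, and 0 for E2 with control siRNA, against 18. For E2 with control siRNA, all probe sets gave 1, quantile normalization 5 and the trended robust spread 39. The 18 called for E2 with control siRNA were 2 without control siRNA, vehicle replicate 2, and 5 or 6 without control siRNA, E2 replicate 2 or either knockdown array in E2. The 57 called for E2 in the knockdown were 0 without any 1 of its 4 arrays. The pro- minus anti-apoptotic change ran from 0.015 to 0.16 for E2 and from -0.15 to -0.013 for the knockdown with single arrays left out. With quantile normalization it was 0.12 and -0.14, and with medians 0.030 and -0.13.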
